A study of Mus musculus with 24 samples.

Results

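The enzymes of phase II drug metabolism were followed in mouse kidney after muscle breakdown and after blocking of the microRNA miR-22. The set comprised 53 genes of 19505 named on the array: 11 UDP-glucuronosyltransferase (Ugt) genes, 21 sulfotransferase (Sult) genes and 21 cytosolic or mitochondrial glutathione S-transferase (Gst) genes. They were taken by symbol (Ugt or Sult followed by a digit, and Gst of the alpha, mu, omega, pi, theta, kappa and zeta classes), and a gene with several probes was represented by the probe with the highest mean. No probe had the symbol of a UGT1A gene, so that cluster was not analysed here.

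Phase II enzymes attach a polar group to drugs, pollutants, hormones and products of metabolism so that these can be carried out of the cell and excreted. Ugt enzymes sit in the endoplasmic reticulum and transfer a sugar from a UDP-sugar, usually glucuronic acid, while Sult enzymes are cytosolic and transfer sulfate from the donor PAPS. Gst enzymes join glutathione to electrophiles, including lipid peroxidation products, and several of them are classical targets of the stress-activated transcription factor NRF2. In the kidney the proximal tubule, which secretes organic anions into the urine, is rich in conjugating enzymes and in the peptidases that turn glutathione conjugates into mercapturates.

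All kidneys came from male C57BL/6N mice aged 10 weeks, and the arrays formed 4 groups: sham with mock oligonucleotide (5 arrays), sham with anti-miR-22 (5 arrays), rhabdomyolysis with mock (7 arrays) and rhabdomyolysis with anti-miR-22 (7 arrays). Rhabdomyolysis, a breakdown of muscle that releases myoglobin and injures the kidney, was produced by 50% glycerol in the calf muscle, and the sham animals had every other step of the protocol. Every animal received an oligonucleotide under the skin at 20 mg/kg, given 24 h before the glycerol step, and also carprofen at 5 mg/kg and 23 h without water, so no group was untreated. Kidneys were collected 24 h after glycerol, and halved kidneys, not sorted cells, were extracted. A mild and a severe glycerol dose are described, and the labels do not assign one to a sample. The labels also do not state that each array is a different animal, so the p-values speak of the spread between samples, which may be technical.

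The inhibitor covers the seed of miR-22, the bases by which a microRNA recognises its targets. The mature microRNA (RefSeq) and both oligonucleotides are shown 5′ to 3′ because they define the comparison. Capitals mark the seed (bases 2 to 8) in the microRNA, the bases pairing with that seed in anti-miR-22 and the 4 changed bases in the mock.
mmu-miR-22-3p: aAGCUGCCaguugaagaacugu
anti-miR-22: cttcaactGGCAGCT
mock: ctAcTacAggcTgct
Anti-miR-22 was 15 bases long and pairs with bases 2 to 16 of the 22-base microRNA. Counting from 1 at the 5′ end and naming the anti-miR-22 base first, the mock carries the changes T3A, A5T, T8A and A12T.

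Sequence before the transcription start is shown as examples for 5 genes whose promoters held a motif of a stress or tubule regulator and whose transcripts differed between groups. RefSeq promoters (GRCm38.p6, from 250 bases before to 50 bases after the start) were found for 46 of the 53 genes, 57 promoters in all, and both strands were searched. The antioxidant response element core TGACNNNGC, to which NRF2 binds, lay in 3 of these 57 promoters and in 12.4% of all 32851 promoters of that length. The related element TGAGTCAGC, added after the sequences had been seen, lay in 2 of 57 and in 0.414% of all. Because of that choice these shares cannot be compared. Both matches lay before the paralogs Gstp1 and Gstp2 and may not be separate occurrences. The HNF1 motif GTTAATNAT, named for a factor of tubule and liver cells, lay in 5 of 57 and in 0.801% of all. The 150 bases before the start are given with the motif in capitals, on the strand of the gene.
Gsta3, chr1:21240435-21240584, plus strand: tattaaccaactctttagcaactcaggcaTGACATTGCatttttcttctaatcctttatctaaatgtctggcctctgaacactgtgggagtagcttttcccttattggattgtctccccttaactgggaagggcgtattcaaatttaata
Gstm5, chr3:107895704-107895853, plus strand: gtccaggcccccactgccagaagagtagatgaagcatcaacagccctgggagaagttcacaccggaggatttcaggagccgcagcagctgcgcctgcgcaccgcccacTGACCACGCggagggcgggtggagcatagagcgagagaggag
Gstp1, chr19:4037913-4038062, minus strand: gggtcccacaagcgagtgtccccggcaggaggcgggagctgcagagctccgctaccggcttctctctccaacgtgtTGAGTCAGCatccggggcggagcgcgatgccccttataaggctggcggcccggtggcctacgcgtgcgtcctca
Gstp2, chr19:4042222-4042371, minus strand: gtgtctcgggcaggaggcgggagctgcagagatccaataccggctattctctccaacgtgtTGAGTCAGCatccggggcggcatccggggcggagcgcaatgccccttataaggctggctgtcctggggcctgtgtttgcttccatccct
Sult1d1, chr5:87569007-87569156, minus strand: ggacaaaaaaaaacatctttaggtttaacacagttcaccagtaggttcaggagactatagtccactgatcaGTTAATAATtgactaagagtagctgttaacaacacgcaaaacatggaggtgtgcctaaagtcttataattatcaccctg
The antioxidant core was also found before Gstm7, which fell after glycerol and whose sequence is not printed, so the genes shown with an antioxidant element are not all that held one. The HNF1 motif was also found before the dim genes Sult2a3, Sult2a4, Sult2a5 and Sult2a6. These genes are paralogs and hold the same letters, GTTAATGAT, so their matches may not be separate occurrences. The short dioxin response element core GCGTG, to which the aryl hydrocarbon receptor binds, lay in 11 of the 57 promoters and in 32.4% of all. A match describes these letters only.

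The values are log2 array signals. Array medians lay between 5.752 and 5.857, and 22 of the 53 genes were below their array's median on every array: 3 Ugt, 17 Sult and 2 Gst genes. For these dim genes a difference in RNA would be hard to see. A total of 30 genes passed the filter on dim probes used as an alternative (7 Ugt, 4 Sult and 19 Gst). Arrays of a group correlated at 0.9853 to 0.9928. The labelled tissue carried its markers: the mean log2 signal of 14 proximal tubule genes was 16.4 to 16.7 on the sham arrays, while 5 hepatocyte genes averaged 8.23 to 8.73. The injured tubule markers (Havcr1, Lcn2 and 4 others) averaged 6.30 to 9.59 in sham mock, the top value coming from replicate 1, and 6.68 to 6.93 in sham anti-miR-22. Without that array the gene counts below were the same in all comparisons but 1, where glycerol with mock raised 10 genes instead of 11.

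Glycerol changed the families in different directions. No measured Ugt gene rose. Of the 4 Sult genes that passed the dim filter, 3 fell and 1 rose with either oligonucleotide. Gst genes of the alpha and pi classes rose, the kappa and zeta genes and most theta genes fell, and the mu class was mixed. With mock, 11 of the 53 genes rose and 18 fell (limma, Benjamini-Hochberg adjusted p below 0.05 over 22205 probes), where 18% of all probes rose and 16.4% fell. With anti-miR-22, 12 rose and 18 fell, against 19.8% and 17.6% of all probes. The shares called with mock and with anti-miR-22 were 72.7% and 63.6% of Ugt genes and 81% and 85.7% of Gst genes. Of the Sult genes, 19% and 23.8% were called. Among all 22205 probes 7641 and 8303 were called, so the Sult family lay below the share of all probes. The median log2 difference of the 53 genes was -0.13 with mock and -0.09 with anti-miR-22. By family it was -1.20 and -0.79 for Ugt, -0.09 and -0.00 for Sult, and 0.42 and 0.38 for Gst, while the median of all probes was -0.00 and 0.00. The group means in the 2 glycerol comparisons share no arrays. The tests are not independent, since both use a spread per probe estimated from all 24 arrays. The 2 comparisons had 11 risen and 17 fallen genes in common, 0 genes with opposite calls, and 22 genes called in neither.

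**Figure D1:**
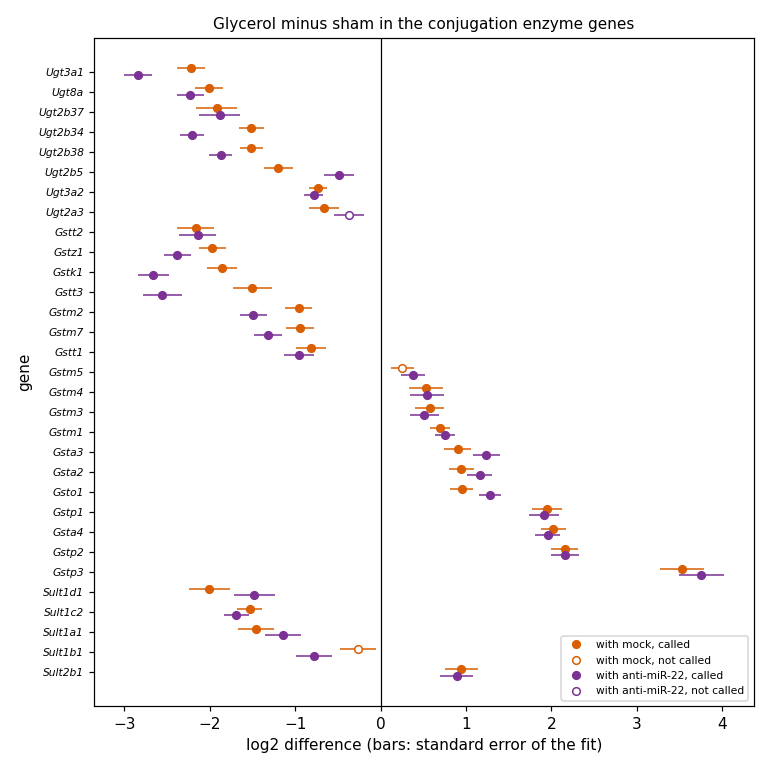
Log2 difference, rhabdomyolysis minus sham, of the 31 conjugation genes called in at least 1 glycerol comparison, with mock (orange) and with anti-miR-22 (purple); filled points passed adjusted p below 0.05 and bars are the standard error of the fit. The Ugt genes lie left of 0, the Gst genes lie on both sides, and Gstp3 lies farthest right at 3.53 and 3.76.

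Transcripts that mark cell types moved in the same comparisons. Of 14 proximal tubule markers, 13 fell with mock (median log2 difference -1.61) and 14 with anti-miR-22 (median -2.39). Their mean signal was 14.0 to 14.8 in rhabdomyolysis mock and 13.6 to 14.3 in rhabdomyolysis anti-miR-22. All 6 injured tubule markers rose in both comparisons (medians 7.09 and 7.24). All 7 thick limb and distal tubule markers and 4 of 6 collecting duct markers fell in both. Of 4 macrophage markers 2 rose and 1 fell, and their mean signal went from 5.61 to 6.23 in sham mock to 7.34 to 7.99 in rhabdomyolysis mock. All 3 neutrophil markers rose, from a mean signal of 4.00 to 4.26 in sham mock to 4.34 to 5.42. In whole kidney, fewer cells of a type and less RNA per cell cannot be told apart. The part of these shifts in the changes of the conjugation genes was not tested.

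All Ugt genes that changed after glycerol fell: 8 of 11 with mock and 7 of 11 with anti-miR-22. The 3 genes below the array median on every array, Ugt2b1, Ugt2b35 and Ugt2b36, passed the test in neither. Ugt3a1 belongs to a family whose human members are known to transfer sugars other than glucuronic acid. Its log2 signal was 16.69, 16.65, 16.66, 16.87 and 16.71 in sham mock and ranged from 14.17 to 15.27 (median 14.31) in rhabdomyolysis mock. The corresponding anti-miR-22 arrays read 16.85, 16.93, 17.09, 16.83 and 16.86 in sham and 13.56 to 14.38 (median 14.18) after glycerol. Every injured array lay below every sham array. On the log2 scale it changed by -2.22 ± 0.16 (SE) with mock (4.66-fold, adjusted p = 1.43e-12) and -2.84 ± 0.16 with anti-miR-22 (7.15-fold, adjusted p = 4.19e-15). Ugt3a2, the other gene of that family, also fell in both (-0.73 ± 0.11 and -0.79 ± 0.11).

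Ugt8a encodes the galactosyltransferase that makes galactosylceramide, a glycolipid of myelin and of kidney. It read 13.09, 12.76, 12.96, 12.64 and 12.36 in sham mock and 10.39 to 11.19 (median 10.80) in rhabdomyolysis mock. With anti-miR-22 the sham arrays were at 12.36, 12.51, 12.36, 12.61 and 12.24 and the injured arrays at 9.68 to 10.70 (median 10.26). The groups did not overlap in either pair. The signal fell, with log2 differences of -2.01 ± 0.16 (4.03-fold, adjusted p = 9.51e-12) and -2.23 ± 0.16 (4.68-fold, adjusted p = 7.88e-13).

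The UGT2B enzymes glucuronidate steroids, bile acids and drugs. Ugt2b37 was at 11.53, 11.67, 12.54, 11.12 and 11.41 in sham mock and 9.24 to 10.26 (median 9.67) after glycerol. With anti-miR-22 it was at 10.73, 11.32, 10.24, 11.26 and 10.96 in sham and 8.48 to 9.60 (median 9.13) after glycerol. It separated sham from injured arrays in both pairs and fell, with log2 differences of -1.92 ± 0.24 (3.78-fold, adjusted p = 9.13e-08) and -1.88 ± 0.24 (3.69-fold, adjusted p = 1.09e-07).

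Ugt2b34 measured 8.97, 8.81, 8.84, 8.75 and 8.77 in sham mock, 8.92, 9.04, 8.61, 8.58 and 9.06 in sham anti-miR-22, 6.78 to 7.65 (median 7.34) in rhabdomyolysis mock and 6.20 to 7.01 (median 6.59) in rhabdomyolysis anti-miR-22. The sham groups overlapped, sham anti-miR-22 being the more spread, and all injured arrays were lower. The log2 difference was -1.51 ± 0.15 with mock (2.86-fold, adjusted p = 5.72e-10) and -2.21 ± 0.15 with anti-miR-22 (4.63-fold, adjusted p = 1.14e-13). Ugt2b38 measured 16.55, 16.64, 16.62, 16.41 and 16.58 in sham mock, 16.12, 16.35, 16.06, 16.34 and 16.13 in sham anti-miR-22, 14.59 to 15.40 (median 15.09) in rhabdomyolysis mock and 14.04 to 14.55 (median 14.37) in rhabdomyolysis anti-miR-22. Here all 4 groups were separate, in that descending order. Glycerol gave it log2 differences of -1.51 ± 0.13 (2.85-fold, adjusted p = 8.72e-11) and -1.87 ± 0.13 (3.66-fold, adjusted p = 6.27e-13).

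Ugt2b5 measured 7.10, 7.48, 7.16, 6.68 and 7.42 in sham mock, 6.13, 5.85, 6.44, 6.31 and 6.25 in sham anti-miR-22, 5.59 to 6.55 (median 5.96) in rhabdomyolysis mock and 5.19 to 6.07 (median 5.70) in rhabdomyolysis anti-miR-22. Only the sham mock arrays stood clear of the other groups. It fell, with log2 differences of -1.20 ± 0.17 with mock (adjusted p = 1.22e-06) and -0.49 ± 0.17 with anti-miR-22 (adjusted p = 0.0257). The call with anti-miR-22 was lost without sham anti-miR-22 replicate 3, 4 or 5 or rhabdomyolysis anti-miR-22 replicate 6 (adjusted p 0.0505 to 0.0761). Ugt2a3, with all group means below the array medians, passed with mock only (-0.66 ± 0.18 against -0.37 ± 0.18). Probes of the Ugt2b genes, which are near copies of each other, may share signal.

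**Figure D2:**
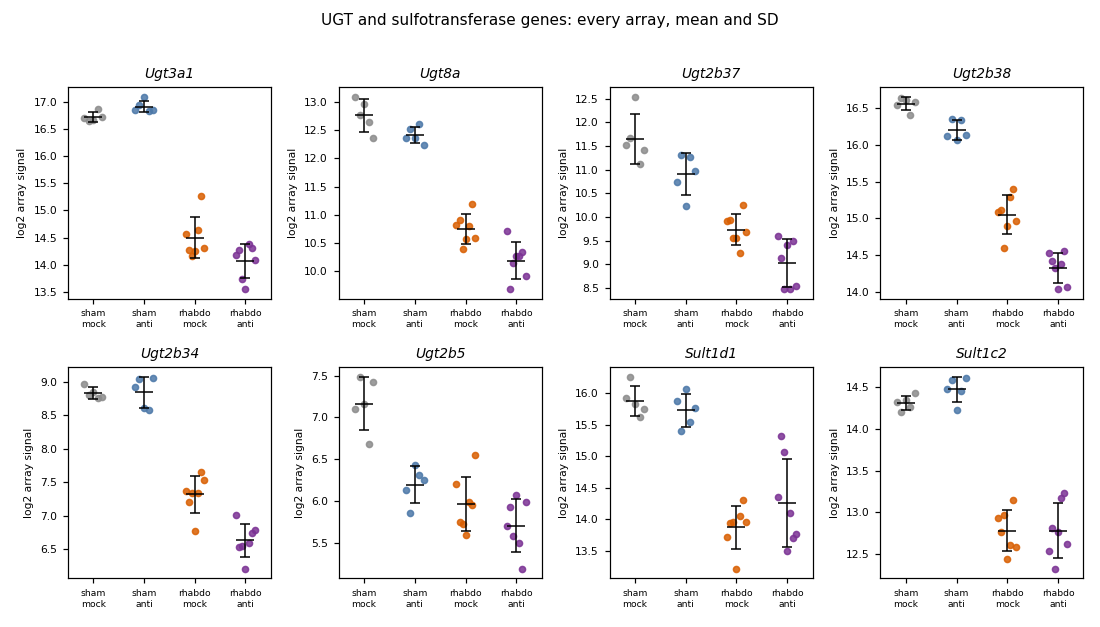
Log2 array signal of 6 Ugt and 2 Sult genes on every array (points) in the 4 groups, with the group mean and SD (black); each panel has its own axis, which does not start at 0. Sham and rhabdomyolysis arrays of the same oligonucleotide are apart in each panel except Ugt2b5, where the sham anti-miR-22 arrays (5.85 to 6.44) overlap the injured anti-miR-22 arrays (5.19 to 6.07).

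The Gst genes that rose encode the alpha, pi and omega classes and part of the mu class. All 3 alpha genes, all 3 pi genes and 1 of 2 omega genes rose in both comparisons, as did 3 of 7 mu genes with mock and 4 of 7 with anti-miR-22. In all, 10 of 21 Gst genes rose with mock and 11 of 21 with anti-miR-22. Gstp3 was at 3.84, 4.26, 4.36, 3.60 and 3.74 in sham mock, 3.71, 3.80, 4.26, 4.38 and 3.67 in sham anti-miR-22, 6.95 to 8.37 (median 7.50) in rhabdomyolysis mock and 6.50 to 8.29 (median 7.998) in rhabdomyolysis anti-miR-22. All sham arrays lay near the arrays' lower quartile (3.909 to 4.028), so the log2 differences of 3.53 ± 0.26 (adjusted p = 1.56e-12) and 3.76 ± 0.26 (adjusted p = 3.14e-13) are given without a fold. All injured arrays lay above the array medians.

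Gstp2, a pi-class enzyme that conjugates reactive electrophiles, was at 12.96, 12.20, 12.63, 12.62 and 12.72 in sham mock, 12.96, 12.78, 12.52, 12.83 and 12.43 in sham anti-miR-22, 14.53 to 15.20 (median 14.82) in rhabdomyolysis mock and 14.26 to 15.26 (median 14.97) in rhabdomyolysis anti-miR-22. The groups were clearly apart by injury and interleaved by oligonucleotide. It rose by 2.16 ± 0.16 in both comparisons (4.45-fold, adjusted p = 2.26e-12, and 4.47-fold, adjusted p = 1.81e-12). Gstp1 rose by 1.94 ± 0.18 and 1.91 ± 0.18. The promoters of Gstp1 and Gstp2, which both hold TGAGTCAGC in the stretch shown above, were identical at 76.6% of aligned positions, against 51.2% for Gstp1 with Gstp3 and 45.8% for Gstp2 with Gstp3. The motif was not found before Gstp3. The probes of Gstp1 and Gstp2, close paralogs, may share signal. The same may hold for Gstp3 and for the Gstm genes, and sharing of signal between probes was not checked.

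Gsta4 encodes the alpha-class enzyme that conjugates 4-hydroxynonenal, an aldehyde from peroxidised lipid. It measured 11.29, 11.08, 10.95, 11.40 and 11.16 in sham mock, 11.16, 10.76, 11.21, 11.04 and 11.16 in sham anti-miR-22, 12.92 to 13.74 (median 13.05) in rhabdomyolysis mock and 12.77 to 13.37 (median 12.94) in rhabdomyolysis anti-miR-22. Injured arrays were all above sham arrays. The rise was 2.02 ± 0.15 (4.06-fold, adjusted p = 1.7e-12) and 1.95 ± 0.15 (3.88-fold, adjusted p = 3.03e-12). Gsta2 rose by 0.94 and 1.16, and Gsta3, whose promoter held the antioxidant core, by 0.90 and 1.24. Gsto1, a glutathione-dependent thiol transferase and dehydroascorbate reductase, rose by 0.95 ± 0.13 and 1.28 ± 0.13.

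The mu class was mixed. Gstm1 rose by 0.69 ± 0.12 and 0.76 ± 0.12, and Gstm3 by 0.58 ± 0.17 and 0.51 ± 0.17. Gstm4 passed narrowly (0.53 ± 0.20, adjusted p = 0.038, and 0.54 ± 0.20, adjusted p = 0.0326), and a second quantile normalization ended both calls (adjusted p 0.106 and 0.0699). Gstm5, whose promoter held the antioxidant core, passed with anti-miR-22 only (0.38 ± 0.14, adjusted p = 0.0287, against 0.25 ± 0.14, adjusted p = 0.172) and did not pass when only the compared groups were fitted (adjusted p = 0.0514). Gstm7, whose promoter also held that core, fell, with log2 differences of -0.95 ± 0.16 and -1.32 ± 0.16, and Gstm6 was called in neither. Single arrays also decided these calls. Gstm4 was lost with mock without sham mock replicate 1, 2 or 3 or rhabdomyolysis mock replicate 2, 4 or 6 (adjusted p 0.0666 to 0.108), and with anti-miR-22 without sham anti-miR-22 replicate 3 or 5 or rhabdomyolysis anti-miR-22 replicate 1, 5 or 6 (adjusted p 0.0613 to 0.0909). Gstm5 was lost without sham anti-miR-22 replicate 1, 2 or 3 or rhabdomyolysis anti-miR-22 replicate 2, 3 or 4 (adjusted p 0.0516 to 0.0866), and Gstm3 with anti-miR-22 without sham anti-miR-22 replicate 2 (adjusted p = 0.0607).

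Gstm2, which detoxifies quinones, fell after glycerol. It read 11.17, 10.73, 10.63, 11.02 and 11.10 in sham mock, 11.50, 11.79, 11.84, 11.69 and 11.96 in sham anti-miR-22, 9.62 to 10.28 (median 10.03) in rhabdomyolysis mock and 9.79 to 10.73 (median 10.39) in rhabdomyolysis anti-miR-22. Sham anti-miR-22 arrays were highest, and injured arrays lay below the sham arrays of the same oligonucleotide. On the log2 scale it changed by -0.96 ± 0.16 (1.95-fold, adjusted p = 1.21e-05) and -1.49 ± 0.16 (2.81-fold, adjusted p = 4.3e-09).

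The theta, kappa and zeta genes fell, with the exception of the dim Gstt4, which was called in neither comparison. Gstt2, a theta-class enzyme, was at 14.02, 15.04, 13.56, 14.30 and 14.04 in sham mock, 14.36, 13.88, 15.23, 13.77 and 14.28 in sham anti-miR-22, 11.75 to 12.49 (median 11.98) in rhabdomyolysis mock and 11.81 to 12.65 (median 12.13) in rhabdomyolysis anti-miR-22. The sham groups were the more spread, yet no injured array reached them. It fell, with log2 differences of -2.16 ± 0.22 (4.48-fold, adjusted p = 1.39e-09) and -2.14 ± 0.22 (4.42-fold, adjusted p = 1.41e-09). Gstt1 fell, with log2 differences of -0.82 ± 0.18 and -0.96 ± 0.18.

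Gstz1 is the maleylacetoacetate isomerase of tyrosine breakdown. It was at 13.32, 13.25, 13.60, 13.20 and 13.51 in sham mock, 12.96, 12.87, 13.10, 13.17 and 13.02 in sham anti-miR-22, 10.93 to 11.77 (median 11.50) in rhabdomyolysis mock and 10.20 to 11.07 (median 10.50) in rhabdomyolysis anti-miR-22. Each injured group lay well below both sham groups. The log2 difference was -1.97 ± 0.16 (3.92-fold, adjusted p = 1.33e-11) and -2.38 ± 0.16 (5.2-fold, adjusted p = 1.61e-13).

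Gstk1, the kappa enzyme of mitochondria and peroxisomes, read 12.81, 12.66, 13.15, 12.76 and 12.88 in sham mock, 12.72, 12.67, 12.82, 12.68 and 12.80 in sham anti-miR-22, 10.68 to 11.29 (median 11.11) in rhabdomyolysis mock and 9.34 to 11.00 (median 10.05) in rhabdomyolysis anti-miR-22. The sham groups coincided, and the injured anti-miR-22 arrays were the most spread. It fell, with log2 differences of -1.86 ± 0.18 (3.62-fold, adjusted p = 6.78e-10) and -2.66 ± 0.18 (6.34-fold, adjusted p = 2.05e-13). Gstt3, a further theta-class gene, was at 12.74, 12.35, 11.80, 12.30 and 12.60 in sham mock, 12.18, 12.33, 11.65, 12.12 and 12.31 in sham anti-miR-22, 10.40 to 11.44 (median 10.64) in rhabdomyolysis mock and 8.66 to 10.24 (median 9.63) in rhabdomyolysis anti-miR-22. It stepped down from sham to injured mock to injured anti-miR-22 with no overlap at either step. On the log2 scale it changed by -1.50 ± 0.23 (2.83-fold, adjusted p = 2.76e-06) and -2.55 ± 0.23 (5.88-fold, adjusted p = 9.43e-11).

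**Figure D3:**
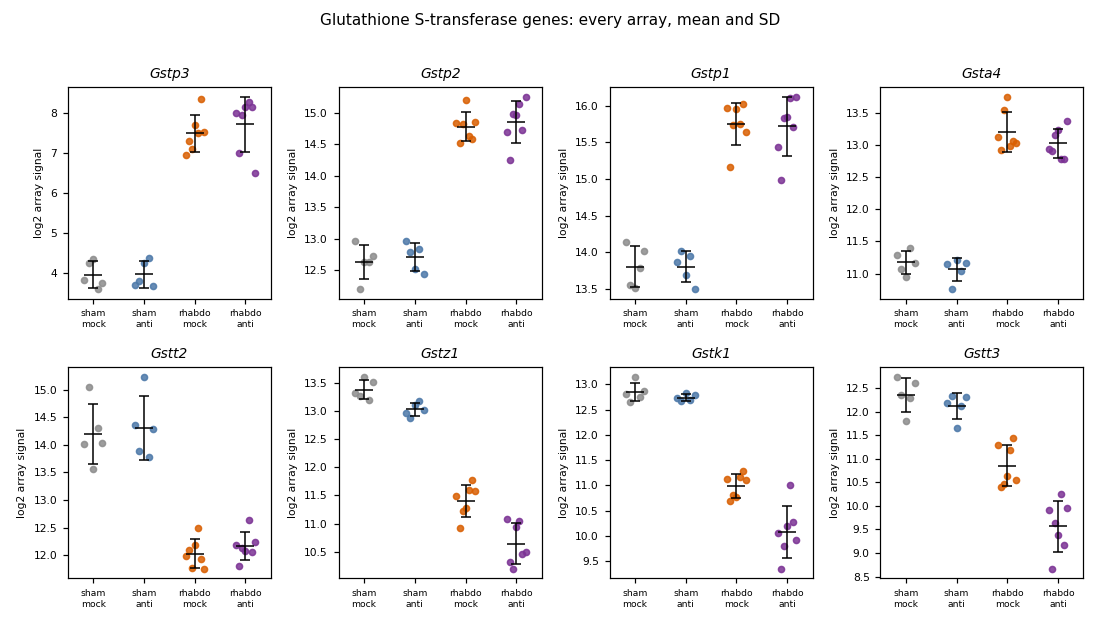
Log2 array signal of 8 Gst genes on every array (points) in the 4 groups, with the group mean and SD (black); each panel has its own axis, which does not start at 0. The upper panels (pi class and Gsta4) are higher in both injured groups, the lower panels (Gstt2, Gstz1, Gstk1 and Gstt3) are lower, and in Gstt3 the injured anti-miR-22 arrays (8.66 to 10.24) lie below all injured mock arrays (10.40 to 11.44).

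Of the 21 Sult genes, 17 were below the array median on every array, and of these only Sult1b1 was called, falling by 0.78 ± 0.21 with anti-miR-22 (adjusted p = 0.00361) and reading -0.26 ± 0.21 with mock. The brighter Sult1 genes fell in both comparisons. Sult1d1, which sulfates catecholamines and related amines, was at 15.93, 16.26, 15.84, 15.62 and 15.75 in sham mock, 15.88, 15.41, 16.07, 15.55 and 15.77 in sham anti-miR-22, 13.21 to 14.30 (median 13.95) in rhabdomyolysis mock and 13.50 to 15.32 (median 14.09) in rhabdomyolysis anti-miR-22. One injured anti-miR-22 array came close to the sham range without reaching it. The log2 difference was -2.00 ± 0.24 (4.01-fold, adjusted p = 4.27e-08) and -1.48 ± 0.24 (2.79-fold, adjusted p = 6.96e-06). Its promoter holds the HNF1 motif shown above.

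Sult1c2, a sulfotransferase of phenolic compounds, was at 14.32, 14.21, 14.35, 14.26 and 14.43 in sham mock, 14.48, 14.58, 14.23, 14.46 and 14.61 in sham anti-miR-22, 12.45 to 13.14 (median 12.77) in rhabdomyolysis mock and 12.33 to 13.24 (median 12.77) in rhabdomyolysis anti-miR-22. Injured arrays were all lower, whichever oligonucleotide was given. It fell, with log2 differences of -1.53 ± 0.15 (2.89-fold, adjusted p = 6.18e-10) and -1.69 ± 0.15 (3.22-fold, adjusted p = 6.45e-11). Sult1a1, the phenol sulfotransferase, read 7.25, 7.48, 7.49, 7.28 and 7.64 in sham mock, 7.12, 6.39, 7.28, 7.80 and 7.00 in sham anti-miR-22, 5.52 to 6.43 (median 5.85) in rhabdomyolysis mock and 5.31 to 6.71 (median 5.93) in rhabdomyolysis anti-miR-22. The groups were separate with mock and overlapped with anti-miR-22. On the log2 scale it changed by -1.46 ± 0.21 (2.75-fold, adjusted p = 1.05e-06) and -1.15 ± 0.21 (2.21-fold, adjusted p = 3.88e-05).

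Sult2b1, which sulfates cholesterol and other sterols, was the only Sult gene that rose. It read 5.36, 5.06, 5.97, 5.32 and 4.67 in sham mock, 5.90, 5.18, 5.47, 5.35 and 5.85 in sham anti-miR-22, 6.02 to 6.55 (median 6.15) in rhabdomyolysis mock and 5.94 to 6.92 (median 6.32) in rhabdomyolysis anti-miR-22. Injured arrays lay just above the sham arrays of the same oligonucleotide. The log2 differences were 0.94 ± 0.19 (adjusted p = 0.000196) and 0.89 ± 0.19 (adjusted p = 0.000357), against sham means below the array medians. The Sult2a genes, whose products sulfate steroids and bile acids in liver, were dim throughout and none was called.

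Genes that feed, follow or regulate conjugation were read from a list of 66, of which 59 were measured. With mock 15 rose and 28 fell, and with anti-miR-22 15 rose and 29 fell, with medians of -0.29 and -0.26. Among all probes 18% rose and 16.4% fell with mock, and 19.8% rose and 17.6% fell with anti-miR-22. All 5 measured mercapturate genes fell in both comparisons (medians -2.30 and -2.72), as did 10 and 11 of 14 genes of amino acid, methyl and acetyl conjugation. Of the latter, Acsm5 and Acsm1, medium-chain acyl-CoA synthetases, fell, with log2 differences of -4.72 ± 0.19 (26.3-fold) and -3.24 ± 0.24 (9.45-fold) with mock, and the methyltransferase Inmt fell, with a log2 difference of -3.98 ± 0.19 (15.8-fold). With anti-miR-22 the same genes fell 24.4-fold, 15.3-fold and 22.6-fold. Among the rises were the microsomal glutathione transferase Mgst1 (2.83 ± 0.21, 7.1-fold, and 3.68 ± 0.21, 12.8-fold), the NRF2 target Nqo1 (2.15 ± 0.13, 4.43-fold, and 2.13 ± 0.13, 4.38-fold) and the prostaglandin D synthase Hpgds (2.22 ± 0.26 and 2.84 ± 0.26, from a dim sham level).

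Transcripts of the genes that supply the donors of the conjugating groups did not move as one, and the donors themselves were not measured. Ugdh, which makes UDP-glucuronic acid, rose by 1.98 ± 0.16 and 2.01 ± 0.16, while none of the 11 measured Ugt genes rose. The UGT1A genes are not among these 11. Papss2, which makes the sulfate donor PAPS, fell, with log2 differences of -2.33 ± 0.17 and -2.98 ± 0.17. Ugdh and Papss2 were chosen here after their values were seen. Of the 11 measured supply genes, 3 rose and 5 fell with mock, and 4 rose and 4 fell with anti-miR-22. Of 8 transporter genes listed for efflux, 3 were higher and 3 lower in both comparisons. The list includes the uptake carriers Slc22a6 and Slc22a8, which are also proximal tubule markers, so it does not describe efflux pumps alone. Of 10 measured genes listed as regulators, 4 rose and 2 fell in both, and among the rises was the NRF2 target Nqo1. Of 5 measured genes listed for deconjugation, which include the epoxide hydrolases Ephx1 and Ephx2, 1 rose and 3 fell in both. Of 6 other glutathione enzymes 3 rose in both while 1 fell with anti-miR-22.

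In sham kidneys anti-miR-22 raised 1 of the 53 genes, Gstm2, and lowered 1, Ugt2b5. Of all probes 3.85% rose and 3.31% fell, so these counts are near the background. The median difference was -0.04 for the 53 genes and 0.00 for all probes. Gstm2 rose by 0.83 ± 0.17 (1.77-fold, adjusted p = 0.00187), with every anti-miR-22 array (11.50 to 11.96) above every mock array (10.63 to 11.17). Ugt2b5 fell by a log2 difference of -0.97 ± 0.19 (1.96-fold, adjusted p = 0.000771), with no overlap between 5.85 to 6.44 and 6.68 to 7.48. Ugt2b37 read -0.75 ± 0.26 (adjusted p = 0.0783). It passed when sham mock replicate 4 was left out (adjusted p = 0.0447) and when dim probes were left out (adjusted p = 0.0437), which brings the lowered genes to 2. No proximal tubule marker of 14 was called here.

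In injured kidneys anti-miR-22 lowered 8 of the 53 genes and raised 0, while 10.2% of all probes fell and 9.48% rose. A fall of 8 of 53 is not far from that background. At an unadjusted p below 0.05, 11 of the 53 genes (20.8%) and 29.8% of all probes differed. The median difference was 0.00 for the 53 genes, 0.02 for all probes and -0.26 for the 11 Ugt genes. The lowered genes were Ugt2b34, Ugt2b37, Ugt2b38, Ugt3a1, Ugt8a, Gstk1, Gstt3 and Gstz1. All of them also fell after glycerol, but the glycerol comparison with mock uses the same rhabdomyolysis mock arrays, and the one with anti-miR-22 uses the same rhabdomyolysis anti-miR-22 arrays. No gene of the alpha, mu or pi class was called.

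Gstt3 differed most, with a difference of -1.29 ± 0.21 on the log2 scale (2.44-fold, adjusted p = 2.1e-05) and with separate groups. Gstk1 was lower, with a log2 difference of -0.92 ± 0.16 (1.89-fold, adjusted p = 9.53e-05) and Gstz1 at -0.76 ± 0.15 (1.69-fold, adjusted p = 0.000209), each with overlapping groups. Among the Ugt genes, Ugt2b38 was lower, with a log2 difference of -0.72 ± 0.12 (1.65-fold, adjusted p = 4.13e-05) and its groups lay just apart, at 14.59 to 15.40 and 14.04 to 14.55. Ugt2b37 was lower, with a log2 difference of -0.72 ± 0.22 (1.64-fold, adjusted p = 0.0176), Ugt2b34 at -0.69 ± 0.13 (1.61-fold, adjusted p = 0.000251) and Ugt8a at -0.56 ± 0.15 (1.48-fold, adjusted p = 0.00507), with groups that overlapped. Ugt3a1 passed narrowly (-0.43 ± 0.15, 1.34-fold, adjusted p = 0.04). Without rhabdomyolysis mock replicate 6, whose signal of 15.27 was the highest of its group, the difference was -0.30 (adjusted p = 0.115). The call was also lost without rhabdomyolysis mock replicate 1 or 5 or rhabdomyolysis anti-miR-22 replicate 3, 4 or 7 (adjusted p 0.0559 to 0.115), under a second quantile normalization (adjusted p = 0.0721) and with only the compared groups fitted (adjusted p = 0.0951).

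Of the rises that did not pass, those with the lowest adjusted p were Sult3a2 and Gsto1. Sult3a2, a dim gene, read 0.59 (adjusted p = 0.0603) and Gsto1 read 0.29 ± 0.12 (adjusted p = 0.0945). The count of raised genes became 1 without rhabdomyolysis mock replicate 7, rhabdomyolysis anti-miR-22 replicate 1 or 3, or sham anti-miR-22 replicate 1 or 3. Proximal tubule markers moved in the same comparison, with 7 of 14 lower and 1 higher (median -0.58), and 2 of 4 macrophage markers were lower while 2 of 3 neutrophil markers were higher. Their part in the result was not tested.

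**Figure D4:**
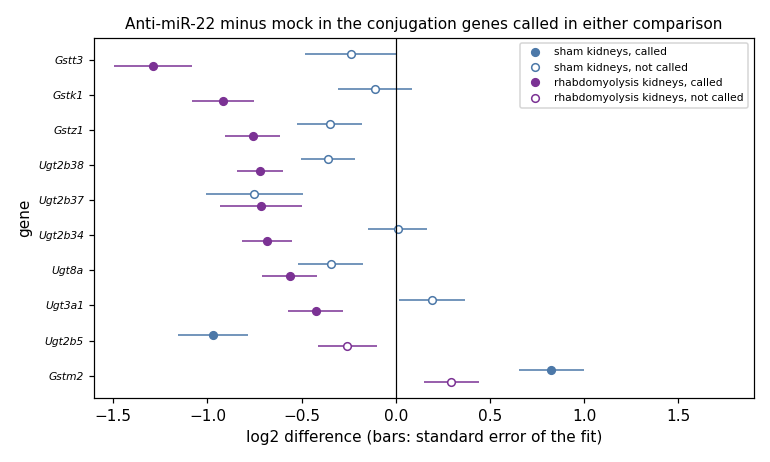
Log2 difference, anti-miR-22 minus mock, in sham (blue) and rhabdomyolysis (purple) kidneys for the 10 conjugation genes called in either comparison; filled points passed adjusted p below 0.05 and bars are the standard error of the fit. In injured kidneys 8 genes are called, all left of 0, from Gstt3 at -1.29 to Ugt3a1 at -0.43. In sham kidneys Gstm2 (0.83) and Ugt2b5 (-0.97) are called.

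Of the 59 partner genes, anti-miR-22 raised 5 and lowered 10 in sham kidneys and raised 9 and lowered 23 in injured kidneys. Among all probes 3.85% rose and 3.31% fell in sham kidneys, and 9.48% rose and 10.2% fell in injured kidneys. Abcg2, an efflux pump for sulfate conjugates, rose by 1.06 ± 0.14 in sham (2.09-fold, adjusted p = 5.21e-06) and by 1.00 ± 0.12 in injured kidneys (2-fold, adjusted p = 1.83e-07). Ppara, a regulator of fatty acid oxidation, fell, with log2 differences of -1.08 ± 0.20 (2.11-fold) and -1.67 ± 0.17 (3.18-fold). The transporter Slc35d1, which carries UDP-glucuronic acid into the endoplasmic reticulum, fell in sham (-0.94 ± 0.13, adjusted p = 1.05e-05) and in injured kidneys (-0.76 ± 0.11, adjusted p = 5.3e-06). The aryl hydrocarbon receptor gene Ahr rose by 0.82 ± 0.19 in sham (adjusted p = 0.0053) and read 0.44 ± 0.16 in injured kidneys (adjusted p = 0.0529). In injured kidneys the synthetase gene Acsm3 rose by 1.04 ± 0.19 (adjusted p = 9.47e-05) and the peptidase gene Anpep fell by 1.26 ± 0.20 (2.39-fold, adjusted p = 1.3e-05). In sham kidneys they read 0.58 ± 0.22 (adjusted p = 0.125) and -0.19 ± 0.23 (adjusted p = 0.766).

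Whether the anti-miR-22 effect differed between injured and sham kidneys was tested directly. None of the 53 genes passed this test in either direction (0 higher, 0 lower in limma), while 0.207% of all probes were higher and 0.176% lower. At an unadjusted p below 0.05, 8 of the 53 genes (15.1%) and 12.4% of all probes differed. The lowest adjusted p was 0.111, for Ugt2b34 (-0.70 ± 0.21). The differences ran from -1.05 ± 0.32 for Gstt3 (adjusted p = 0.125) to 0.76 ± 0.35 for Sult2a4, with standard errors of 0.154 to 0.368. Ugt2b5 read 0.71 ± 0.24 (adjusted p = 0.181), Gstm2 read -0.53 ± 0.23 (adjusted p = 0.308) and Gstk1 read -0.81 ± 0.25 (adjusted p = 0.142). Without rhabdomyolysis anti-miR-22 replicate 5, Gstk1 passed (-0.96, adjusted p = 0.0363), so 1 gene was lower. The calls made in only 1 state are therefore not shown to differ between sham and injured kidneys. None of the 59 partner genes passed this test either.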

How the data were processed

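Total RNA of halved kidneys was hybridised to 24 mouse Clariom S arrays. The authors deposited log2 values, 1 per probe and array; RMA and Partek 6.4 stand in the submitters' processing notes without roles. The sources used here do not give normalization settings or batches. RMA compresses differences of dim probes, no detection call was used, and precision is limited by the number of arrays.

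A model of the 4 group means was fitted with limma 3.58.1 (lmFit, eBayes; R 4.3.3) to 22205 probes on all 24 arrays, 1 probe with missing values being left out. Tests were two-sided, with Benjamini-Hochberg adjustment over every probe, and called at adjusted p below 0.05. A fold is 2 raised to the log2 difference, holds on the deposited scale, and is inexact against dim levels. Probe annotation gave 19572 probes 1 symbol, 0 several and 2633 none, and all 53 genes matched a current gene table by Entrez ID. Values per array (lowest, median and highest for groups of 7) are given for the up to 3 called genes per direction, family and two-group comparison with the largest difference. Partner genes were taken likewise (3 per direction after glycerol, 2 for anti-miR-22). The genes and lists were chosen with earlier results of these data known. The model was tested on simulated data. Further marker lists covered skeletal muscle (1 of 4 higher after glycerol with anti-miR-22, 0 with mock), adrenal gland (1 of 4 higher in both) and adipose tissue (of 2, 1 lower with anti-miR-22). Of the 5 hepatocyte markers, 3 fell after glycerol.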

Additional observations from a re-analysis of the deposited data

Results flagged for a closer look

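Among 72 sets of 5 or 7 arrays searched for a single array far from the rest, 2 held one, and chance alone marks about 1 in 20. Ugt3a1 in sham mock replicate 4 read 16.87 on the log2 scale, where the other 4 arrays read 16.65 to 16.71. Ugt3a1 in rhabdomyolysis mock replicate 6 read 15.27, where the other 6 arrays read 14.17 to 14.65. The fall of Ugt3a1 after glycerol was called without either array, while its lower signal with anti-miR-22 in injured kidneys was not called without rhabdomyolysis mock replicate 6 (adjusted p = 0.115).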

How the results depend on the processing

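Each comparison was refitted under 8 other settings and 24 times with 1 array left out. Of 69 calls made for the 53 genes, 63 kept their sign and passed in every refit that held their probe. Another 6 were lost at least once, and 0 changed sign. The calls of Ugt2a3 with mock and Sult1b1 with anti-miR-22 were not tested with dim probes left out, since that filter removed both probes. In at least 1 refit, 10 further calls were gained. The count of genes lowered by anti-miR-22 in sham kidneys was 2 with dim probes left out, and 1 to 2 with 1 array left out. The count raised in injured kidneys was 1 with dim probes left out (Gsto1, adjusted p = 0.0495), with array quality weights (Sult3a2, adjusted p = 0.0443) and with only the compared groups fitted (Sult3a2, adjusted p = 0.0294), and 0 to 1 with 1 array left out. The count lowered in the difference of effects was 0 to 1 with 1 array left out. Gstm6 passed after glycerol with mock without sham anti-miR-22 replicate 3 (adjusted p = 0.0426). After glycerol with anti-miR-22, Sult3a2 passed without sham anti-miR-22 replicate 1 (adjusted p = 0.0349). Sult1c1 passed in that comparison without sham anti-miR-22 replicate 1 or 4 or rhabdomyolysis mock replicate 6 (adjusted p 0.0396 to 0.0462). The causes were not tested, except that fewer probes are tested where dim ones are left out.

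Same-numbered arrays did not deviate together: 32 pairs correlated at -0.108 to 0.102, and 6 of 24 arrays correlated best with their own number. A replicate block kept every count of calls within 1.5 times; the calls it added were Sult2a4 (0.62, adjusted p = 0.0267) and Ugt2a3 (-0.48, adjusted p = 0.0249) with anti-miR-22 and Sult3a1 (-0.59, adjusted p = 0.00916) with mock. The difference of effects needs all groups and was not refitted with fewer. Signals near the lower quartile limit what can be seen for the 22 dim genes.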
